A study of Mus musculus with 36 samples.

Results

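The genes described here are 8 transcripts by which the visceral endoderm is known as a nutrient-carrying epithelium. Afp, Ttr and Rbp4 encode secreted carrier proteins, Apoa1 and Apob encode apolipoproteins, Cubn and Amn encode the paired subunits of an endocytic receptor, and Slc2a2 encodes a glucose transporter. They were chosen by symbol: every probe of the deposited table that carries 1 of the 8 symbols was taken, in all 16 regions. The table names 30869 symbols, and all 8 were among them, with 11 of its 45281 probes. Slc2a2 has 4 of these probes and each of the other 7 genes has 1. Of the 11 probes, 9 were detected on at least 1 array and were tested, among 21712 tested probes, and these 9 include at least 1 probe of every gene. For Slc2a2, the tested probe with the higher mean stands for the gene.

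RNA was taken from regions microdissected from wild-type embryos of the outbred MF1 strain at successive stages of axis elongation and profiled on 36 arrays of the MouseWG-6 v2.0 BeadChip from Illumina. Pieces of 1 region from several embryos were pooled for each array, with 6 to 74 pieces in a pool, so that an array gives the mean of a mixture of cells and embryos. The arrays form 3 labelled batches of 12, and their number limits the precision of each value. At E7.5, A (3 arrays) was anterior tissue of neural fate and PP (2 arrays) the proximal posterior tissue at the end of the primitive streak. P (2 arrays) held the other posterior tissue with the streak. At E8.5 they were the rostral node (RN, 2 arrays), the node-streak border (NSB, 3 arrays), the caudal lateral epiblast (CLE, 3 arrays), and the rostral and the posterior end of the primitive streak (St1 and St5, 2 arrays each). Tail bud regions were the chordoneural hinge (CNH) at E9.5, E10.5, E12.5 and E13.5 with 2 arrays each and at E11.5 with 3, and the tissue just behind it (P-CNH) at E9.5, E10.5 and E11.5 with 2 each. According to the study's methods, underlying endoderm and mesoderm were cut away from the CLE, whereas endoderm remained in the other early pieces. No label places the replicate pools in separate litters, and p-values measure only the spread between pools.

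The visceral endoderm is the outer epithelium of the early mouse embryo and later part of the yolk sac wall. Before the placenta works, it takes up maternal proteins and lipids by endocytosis, packages lipids into lipoproteins and secretes serum proteins that the liver makes later in life. Cubilin has no membrane anchor of its own and reaches the apical surface bound to amnionless, and retinol-binding protein circulates in a complex with transthyretin.

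Genes of this kind are known to be read through liver-type transcription factors, and the 8 genes were high together in 1 region, so their promoters are shown with the letters that such factors are known to bind. RefSeq sequences of the mouse build GRCm38.p6 were used, 250 bases ending just before the annotated start, and 7 of the 8 genes matched with 8 entries. No sequence of Ttr was used. Capitals mark the matches among 4 words searched on both strands: the HNF4 core CAAAGTCC, the FOXA words TGTTTAC and TGTTTGC, and the GATA word AGATAA. Of 32851 promoters of the same length, 1.2%, 3.17%, 4.3% and 9.99% held these words in that order, and 17.4% held any of them. The sequences with a match are those of Afp on chr5:90490464-90490713 (plus strand), Apoa1 on chr9:46228380-46228629 (plus strand), Apob on chr12:7977427-7977676 (plus strand) and the upstream start of Rbp4 on chr19:38125322-38125571 (minus strand).
Afp: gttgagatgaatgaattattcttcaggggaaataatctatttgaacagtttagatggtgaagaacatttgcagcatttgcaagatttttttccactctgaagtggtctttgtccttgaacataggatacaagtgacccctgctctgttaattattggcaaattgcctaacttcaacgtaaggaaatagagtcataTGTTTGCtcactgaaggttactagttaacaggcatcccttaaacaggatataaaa
Apoa1: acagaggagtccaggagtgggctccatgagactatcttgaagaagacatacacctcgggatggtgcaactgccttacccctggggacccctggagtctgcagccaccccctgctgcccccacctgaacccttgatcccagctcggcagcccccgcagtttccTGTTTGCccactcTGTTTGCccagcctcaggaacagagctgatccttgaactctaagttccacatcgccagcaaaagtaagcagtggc
Apob: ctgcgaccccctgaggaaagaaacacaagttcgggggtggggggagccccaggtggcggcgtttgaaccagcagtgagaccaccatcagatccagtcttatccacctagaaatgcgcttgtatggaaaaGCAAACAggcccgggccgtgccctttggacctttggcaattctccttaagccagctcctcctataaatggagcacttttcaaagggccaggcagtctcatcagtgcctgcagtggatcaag
Rbp4: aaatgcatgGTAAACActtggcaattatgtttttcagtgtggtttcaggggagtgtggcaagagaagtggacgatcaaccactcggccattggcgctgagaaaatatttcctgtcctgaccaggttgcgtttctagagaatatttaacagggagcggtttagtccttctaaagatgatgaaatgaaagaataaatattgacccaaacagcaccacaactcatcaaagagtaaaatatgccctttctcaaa
Afp held TGTTTGC at positions -55 to -49 from its start. In Apoa1, TGTTTGC stood at positions -88 to -82 and again at -75 to -69. Apob held the reverse complement of TGTTTGC at -121 to -115, and the upstream start of Rbp4 held that of TGTTTAC at -241 to -235. None of the 4 words is in the windows of the other Rbp4 start on chr19:38124812-38125061 (minus strand), of Amn on chr12:111270846-111271095 (plus strand), of Cubn on chr2:13491877-13492126 (minus strand) or of Slc2a2 on chr3:28697653-28697902 (plus strand). The windows of Cubn and Slc2a2, a pair of genes detected on the fewest arrays, are printed as examples of those without a match.
Cubn: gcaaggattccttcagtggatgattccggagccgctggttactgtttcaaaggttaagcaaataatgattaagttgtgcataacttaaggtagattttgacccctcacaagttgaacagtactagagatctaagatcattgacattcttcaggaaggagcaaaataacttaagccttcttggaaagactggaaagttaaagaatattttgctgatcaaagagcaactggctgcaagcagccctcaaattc
Slc2a2: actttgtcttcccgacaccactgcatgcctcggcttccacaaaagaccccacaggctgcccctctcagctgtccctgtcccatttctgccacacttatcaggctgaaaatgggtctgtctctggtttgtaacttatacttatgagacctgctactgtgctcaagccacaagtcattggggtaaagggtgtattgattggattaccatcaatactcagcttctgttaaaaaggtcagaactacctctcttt
A match is a run of letters, and binding was not measured here.

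All values below are log2 intensities after background correction and quantile normalisation, and a probe counts as detected on an array where its detection p-value against the negative controls was under 0.01. E7.5 A replicate 3 stood apart from the other A arrays. All 8 genes were higher on it than on both other A arrays, by a median of 2.45 over replicate 1 (0.22 to 3.44) and 2.53 over replicate 2 (0.41 to 3.46), whereas replicates 1 and 2 differed by a median of -0.08 (-0.45 to 0.51). Over all tested probes, its correlation with replicates 1 and 2 was 0.928 and 0.888, against 0.981 between those 2. It was also the only A array of batch 3, which held both PP arrays, while both P arrays and the other A arrays were in batch 2. Comparisons of PP with P therefore rest on regions that span both batches, A among them, and the E7.5 comparisons of the 8 genes are given with and without this array. Members were called different where limma, with batch as a term, gave a change of 1.5-fold or more and a p-value, adjusted over all 21712 tested probes, no higher than 0.05. Where a probe was undetected on every array of 1 side, the size is given as a lower bound of the fold. This bound comes from array means without the batch term. Each dim array is set to the higher of its own value and its lowest detected signal. Fitted differences of such probes are printed mainly to compare fits, and they rest on background on the undetected side.

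**Figure D1:**
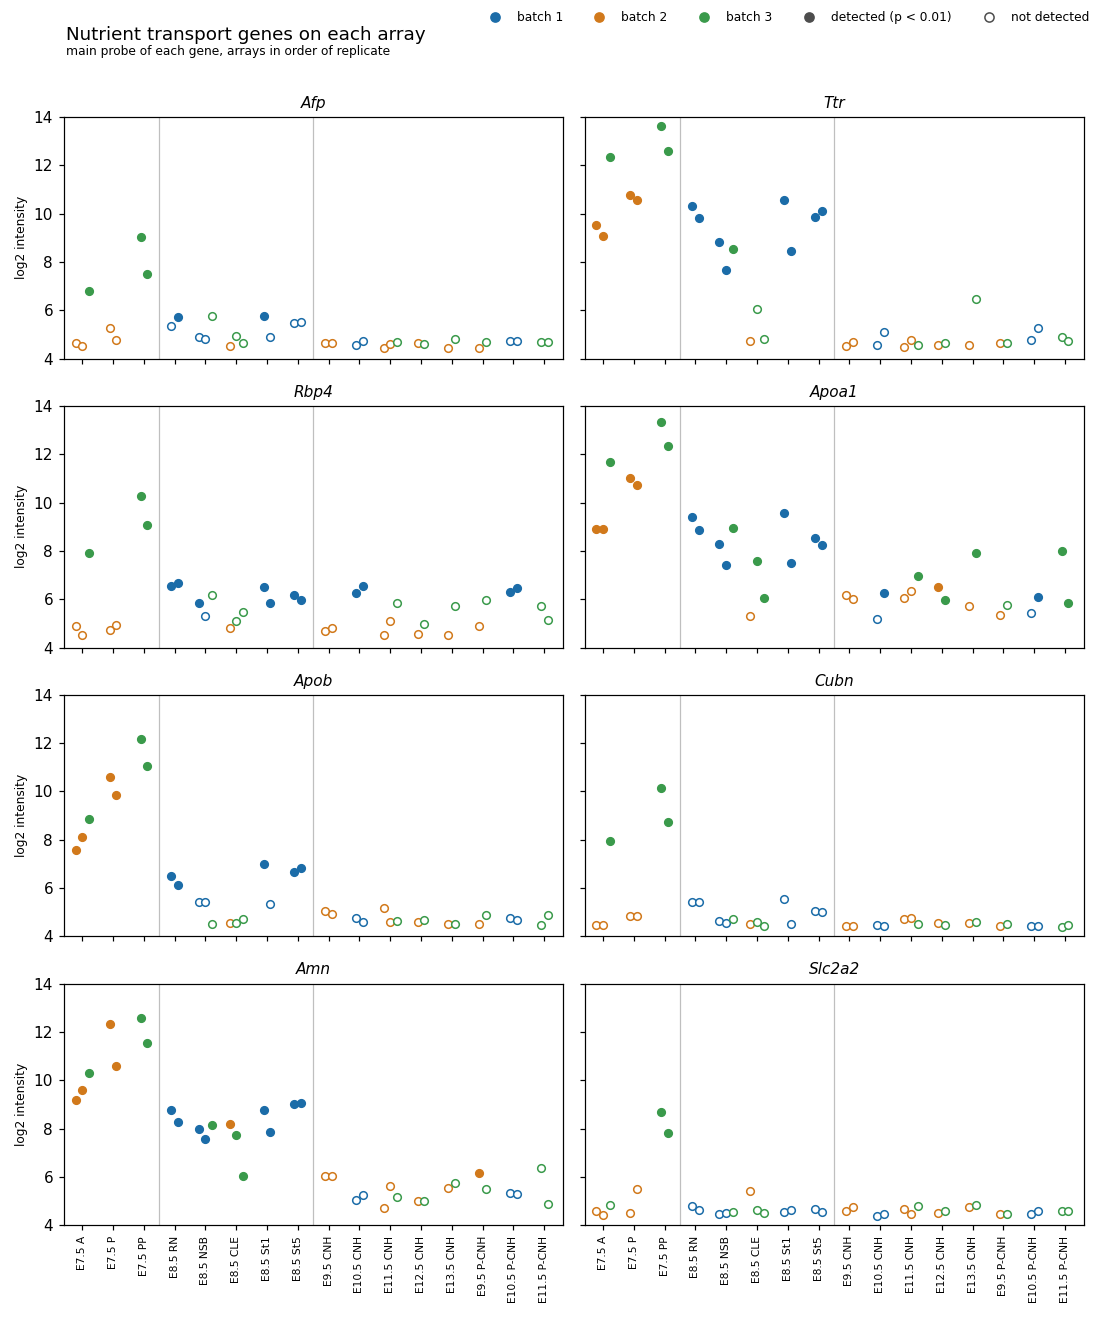
Log2 intensity (y axis) of the 8 genes on each of the 36 arrays, by region (x axis) from E7.5 to E13.5. Filled points were detected, open points were not, and colours give the batch; both E7.5 PP arrays are the highest of all in 7 of the 8 panels, with 12.32 on an E7.5 P array above 11.55 on a PP array for Amn.

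Among the secreted carriers, Ttr, which encodes the thyroid hormone and retinol-binding protein carrier transthyretin, was detected on 16 arrays of 7 regions. Its log2 intensity was 13.62 and 12.60 on the 2 E7.5 PP arrays, 10.79 and 10.58 in P, and 9.54, 9.09 and 12.33 in A. At E8.5 it was 10.31 and 9.84 in RN, 8.83, 7.66 and 8.52 in NSB, 10.55 and 8.46 in St1, 9.87 and 10.09 in St5, and 4.74, 6.06 and 4.81 in CLE. It was thus high on every early array but those of the CLE, where it was undetected, as it was on all tail bud arrays (4.50 to 6.45). The PP arrays stood above all others, while P, A, RN, St5, St1 and NSB each overlapped their neighbour in the order of means.

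Afp encodes alpha-fetoprotein, the main serum protein of the fetus. Its log2 intensity was 9.03 on E7.5 PP replicate 1 and differed by -1.53 on replicate 2 (mean 8.27), against 5.28 and 4.78 in P and 4.66, 4.52 and 6.81 in A, of which only the last was detected. Outside E7.5 it was detected on single arrays of RN (5.71, with 5.36 undetected) and St1 (5.77, with 4.88 undetected), and not in NSB (4.90, 4.83 and 5.78), CLE (4.54, 4.96 and 4.65) or St5 (5.47 and 5.50). PP was thus the only region in which every array detected Afp, and the means of RN, St5, A, St1, NSB and P, from 5.53 to 5.03, did not separate beyond their spread. The tail bud arrays lay between 4.44 and 4.82, all undetected.

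Rbp4 encodes the plasma carrier of retinol. It measured 10.29 and 9.09 in E7.5 PP, 4.73 and 4.94 in P, and 4.89, 4.50 and 7.92 in A, and only PP and the last A array were detected at this stage. At E8.5 the values were 6.53 and 6.69 in RN, 5.84, 5.29 and 6.16 in NSB, 6.52 and 5.84 in St1, 6.16 and 5.97 in St5, and 4.79, 5.10 and 5.49 in CLE. Rbp4 was also detected at E10.5, at 6.24 and 6.56 in CNH and 6.30 and 6.45 in P-CNH, and on no other tail bud array (4.50 to 5.97). All detected values outside E7.5 were on arrays of batch 1, which had the highest number of detected probes (median 15875, against 13803.5 in batch 2 and 14697 in batch 3), so the low levels of Rbp4 cannot be compared across batches by detection.

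Of the apolipoprotein genes, Apoa1, which encodes the main protein of high-density lipoprotein, was detected on 26 arrays of 14 regions. Its log2 intensity was 13.35 and 12.32 in E7.5 PP, 11.00 and 10.72 in P, and 8.92, 8.91 and 11.68 in A. At E8.5 it was 9.41 and 8.87 in RN, 8.27, 7.40 and 8.94 in NSB, 9.56 and 7.51 in St1, 8.52 and 8.23 in St5, and 5.31, 7.57 and 6.07 in CLE. Its arrays formed a continuous order below PP, since each region overlapped the next, from P at 10.86 ± 0.20 (SD, n = 2) to E9.5 P-CNH at 5.55. In the tail bud Apoa1 reached 7.99 on an E11.5 P-CNH array and 7.92 on an E13.5 CNH array, with 5.83 and 5.71 on their replicates.

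Apob encodes the scaffold protein of the lipoproteins that the yolk sac secretes. It measured 12.18 and 11.06 in E7.5 PP, 10.61 and 9.86 in P and 7.59, 8.10 and 8.84 in A, so that these 3 regions did not overlap. Lower values followed at E8.5, with 6.67 and 6.83 in St5, 6.51 and 6.14 in RN, 7.00 and 5.36 in St1, 5.44, 5.41 and 4.53 in NSB, and 4.55, 4.57 and 4.71 in CLE. Neither NSB nor CLE had a detected array, and no tail bud array did (4.48 to 5.16). For Apob every E7.5 array, A included, lay above every later array.

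Of the receptor subunits, Cubn, which encodes the ligand-binding subunit cubilin, was detected on 3 arrays only: 10.14 and 8.75 in E7.5 PP and 7.93 on A replicate 3. The other A arrays measured 4.49 and 4.47 and the P arrays 4.83 and 4.85, and the undetected arrays of E8.5 ranged from 4.42 to 5.53 and those of the tail bud from 4.39 to 4.75. Amn, which encodes the membrane anchor amnionless, was instead detected on every early array. It measured 12.57 and 11.55 in PP, 12.32 and 10.58 in P, 9.20, 9.60 and 10.31 in A, 9.01 and 9.04 in St5, and 8.76 and 8.28 in RN. In the remaining E8.5 regions Amn was at 8.77 and 7.84 in St1, 7.99, 7.55 and 8.15 in NSB and 8.19, 7.74 and 6.04 in CLE. Its values in PP and P overlapped, those of A lay below both, and only 1 tail bud array was detected (6.17, E9.5 P-CNH replicate 1). The receptor partners thus differed in where they could be detected, although detection depends on each probe and their levels are not compared.

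Slc2a2, which encodes the low-affinity glucose transporter GLUT2, was detected in E7.5 PP alone, at 8.67 and 7.81. The P arrays measured 4.50 and 5.52, the A arrays 4.61, 4.42 and 4.83, and all later arrays lay between 4.39 and 5.41. Its other probes gave little signal: the second tested probe was detected on 1 PP array (5.97, with 4.74 on the other), and the remaining 2 were detected nowhere. Their PP values were 5.51 and 4.73 for one and 4.49 and 4.56 for the other. The second tested probe was not called between PP and P (adjusted p = 0.605) or between PP and A (adjusted p = 0.135), and the result for Slc2a2 rests on 1 of its 4 probes.

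E7.5 PP had the highest mean of all 16 regions for 8 of 8 genes, and the highest of the 36 arrays was PP replicate 1 each time. For 7 genes both PP arrays were above every other array, which was so for 217 of all tested probes (0.999%). Of the 7, Slc2a2 was tested only because PP arrays detected it and Cubn only because of PP and A replicate 3, so this share is no measure for them. The PP replicates were not alike in level, since replicate 2 was lower for all 8 genes, with a median log2 difference of -1.07 (-1.53 to -0.87). All 8 genes were detected on both PP arrays, against 4, 4 and 7 on the A arrays and 4 and 4 on the P arrays.

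Comparing PP with P asks how the posterior end of the streak differs from the rest of the posterior embryo. Of the 8 genes, 4 were called higher in PP and none lower, against 0.792% of all tested probes. Afp was at least 4.62-fold higher (adjusted p = 0.0108) and Slc2a2 at least 4.54-fold (adjusted p = 6.76e-06). In PP the mean of Rbp4 was 9.69 ± 0.85 (SD, n = 2) and that of Cubn 9.44 ± 0.98 (SD, n = 2). Both stood against undetected P arrays (limma's adjusted p = 0.00163 and 0.00529). Both PP arrays were above both P arrays for each of the 4 genes. Slc2a2 passed the filter on dim probes only through PP and Cubn only through PP and A replicate 3, so part of this count, and of the later counts of PP or E7.5 in which they are called, follows from how probes entered the test. Whether PP pools held more cells that express these genes or more RNA per cell cannot be told apart in any of these comparisons.

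The other 4 genes were detected on both sides and were not called. Apob differed by 1.16 ± 0.47 (SE; unadjusted p = 0.0218, adjusted p = 0.356 by limma), and the 95% confidence intervals ran from -0.14 to 3.06 for Ttr, from -1.04 to 2.46 for Apoa1 and from -0.68 to 2.18 for Amn, which leave room for large differences. The median fitted difference of the 8 genes was 2.05, or 1.82 with the 4 bounded genes at their bound, against 0.013 for all tested probes. Without A replicate 3 the same comparison called 4 genes, and the adjusted p-values were 3.58e-06 for Rbp4, 2.42e-07 for Cubn, 7.73e-05 for Afp and 6.85e-06 for Slc2a2. Without PP replicate 1 only Slc2a2 was called, with adjusted p-values of 0.0722 for Rbp4, 0.146 for Cubn and 0.3 for Afp, and without P replicate 2 Afp was not called (0.0696), nor with the BeadChip as a random block (adjusted p = 0.115). P and PP share no batch, and no value within a batch could be had.

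PP was also compared with A, the anterior region of the same embryos' stage. Here 6 of 8 genes were called higher and none lower, beside 6.15% of all tested probes. Apob was higher by 3.30 ± 0.406 on the log2 scale (SE; adjusted p = 7.03e-06), Cubn by 3.40 ± 0.612 (0.000731), Rbp4 by 3.06 ± 0.493 (0.00021), Afp by 2.54 ± 0.443 (0.000522) and Amn by 2.45 ± 0.595 (0.0117). Slc2a2 was at least 4.55-fold higher (adjusted p = 1.25e-08). Cubn, Rbp4 and Afp were detected on only 1 of 3 A arrays, replicate 3, so that their differences rest partly on background. Ttr (2.14 ± 0.666, adjusted p = 0.06) and Apoa1 (2.16 ± 0.73, adjusted p = 0.0929) were not called, and the PP arrays were above every A array for 8 of 8 genes. The median was 2.80, or 2.50 with Slc2a2 at its bound, against -0.029 for all tested probes.

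These differences depended on A replicate 3. Without it all 8 genes were called, with Ttr at 3.31 (adjusted p = 0.00236) and Apoa1 at 3.01 (0.0283), while Cubn, Afp, Rbp4 and Slc2a2 were undetected on both A arrays that remained. Within batch 3, A replicate 3 alone stood against both PP arrays, so only sizes are given here. Slc2a2 was undetected on that A array, at 4.83 against 8.67 and 7.81 in PP. The differences of the others were 2.78 for Apob, 1.77 for Rbp4, 1.75 for Amn, 1.52 for Cubn, 1.46 for Afp, 1.15 for Apoa1 and 0.78 for Ttr. Without PP replicate 1 the call of Amn was lost (1.94, adjusted p = 0.247). A is shared with the next comparison and PP with the last, so the 3 comparisons at E7.5 are not independent.

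Between A and P, 1 gene was called, against 2.73% of all tested probes. Apob was lower in A by a log2 difference of -2.14 ± 0.386 (SE; adjusted p = 0.00154), with all 3 A arrays below both P arrays. Amn was at -1.70 ± 0.564 (unadjusted p = 0.00647, adjusted p = 0.147) and Apoa1 at -1.44 ± 0.693 (unadjusted p = 0.0492, adjusted p = 0.46). The differences of the 8 genes ran from -2.14 to 0.58 with a median of -0.53, and 0.036 for all tested probes. Without A replicate 3 the difference of Apob was -2.39 and the median -0.93, again with 1 call. Without P replicate 1 Apob was no longer called (-1.76, adjusted p = 0.0688), and without P replicate 2 Amn was called as well (-2.57, adjusted p = 0.0367). Within batch 2, which holds both P arrays and 2 A arrays, 3 genes were called, all lower in A: Ttr, Apob (-2.39, adjusted p = 0.0181) and Apoa1 (-1.95, 0.00629).

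**Figure D2:**
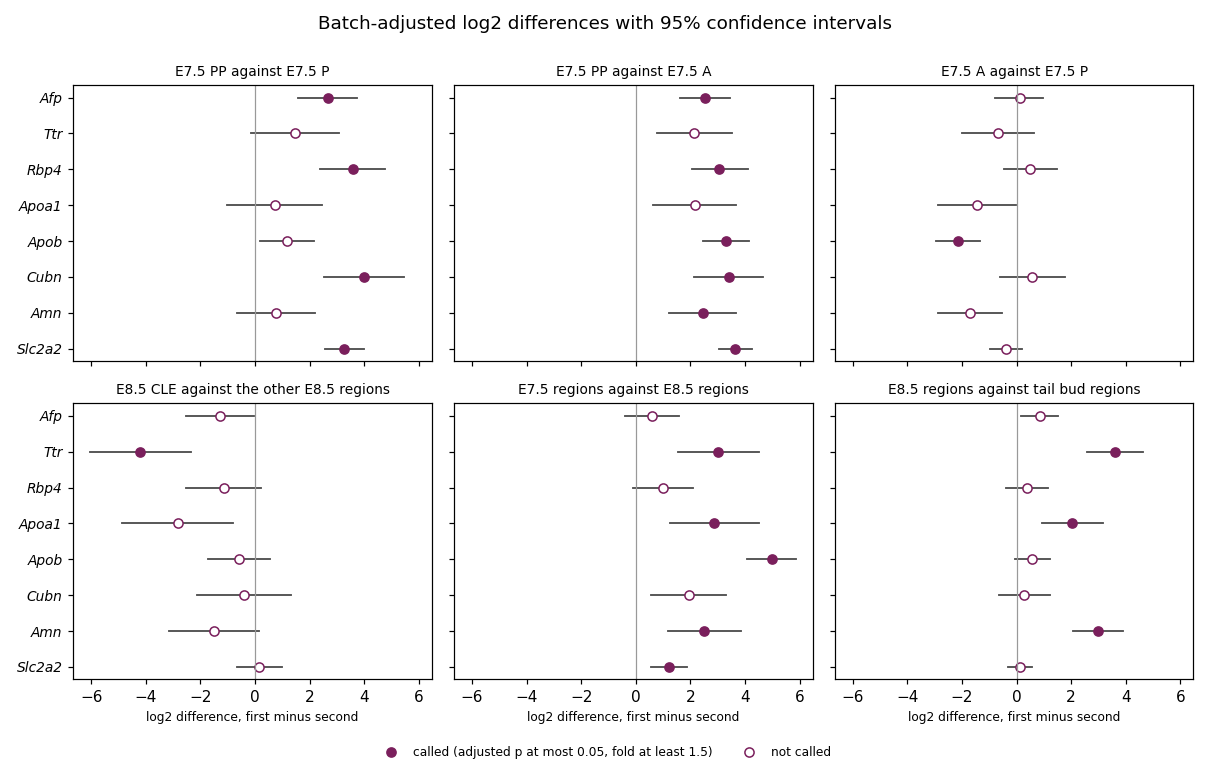
Fitted log2 difference (x axis) of each gene (y axis) in 6 comparisons, as points with 95% confidence intervals. Points are filled where called, also where 1 side was undetected and the text gives a bound. In E7.5 PP against E7.5 A 6 points are filled and all 8 lie between 2.14 and 3.64.

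At E8.5 the CLE was compared with the other 4 regions, since it alone had its endoderm dissected away. Ttr was called lower, at least 7.62-fold (adjusted p = 0.018), and was the only member called, against 1.01% of all tested probes, most of them lower in CLE (198 of 220). All 3 CLE arrays were below the 9 other E8.5 arrays for Ttr. The CLE arrays detected 11062, 12289 and 14747 probes, and replicate 1 had the lowest signal over background of all arrays (2.17). NSB replicate 3 detected 13147 probes, and the other E8.5 arrays, all of batch 1, detected 15481 to 16256. The CLE arrays lay in batches 2 and 3, so only NSB replicate 3 ties them to batch 1. That array could not be left out of this comparison. Apoa1 differed by -2.84 ± 0.983 (SE; unadjusted p = 0.00861, adjusted p = 0.322), Afp was undetected in CLE, and Amn, detected on all 3 CLE arrays, overlapped the other regions. The 8 genes had a median of -1.22, against 0.006 for all tested probes. The call of Ttr was lost without NSB replicate 2 (-3.76, limma's adjusted p = 0.0919) or CLE replicate 3 (-3.79, 0.0545), against a fitted difference of -4.20 in the main fit. It was also lost with no background correction (-2.81, adjusted p = 0.141), with a normexp offset of 100 (-2.68, 0.152) and after cyclic loess normalisation (-3.54, 0.531). Within batch 3, with 2 CLE arrays and only 1 NSB array, the difference was -3.09. All these differences rest on background on the CLE side.

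Markers of the tissue removed there moved in the same comparison. Of 9 tested gut endoderm markers, 4 were lower in CLE and none higher, with a median of -1.92, or -1.69 with 3 of them at their bound. Their mean log2 intensity was 8.07, 8.58 and 8.11 on the CLE arrays against 9.76 to 10.62 on the other E8.5 arrays, and 6 of 9 were detected on each CLE array. Markers of other tissues were also called, with 1 of 6 blood markers called lower (median -1.73 with 2 at their bound) and 1 of 5 notochord and node markers (median -1.91, or -0.81 with 2 at their bound). The part of any of these tissues in the difference of Ttr was not tested.

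No member was called in any of the other E8.5 regions set against the rest of its stage, comparisons that share all their arrays. That rest included the CLE, where Ttr was undetected, with a mean of 5.20. The other E8.5 means of Ttr ran from 8.34 in NSB to 10.08 in RN. Batch 1 holds no CLE array, and only NSB replicate 3 ties batch 1 to the batches of the CLE. Cubn and Slc2a2 were detected on no E8.5 array. They give no information in any comparison within E8.5, although they enter its medians. In RN, where 2.25% of all tested probes were called, limma called 0 of 8 genes, with 2 at an unadjusted p under 0.05, Ttr (1.83 ± 0.598, SE, adjusted p = 0.179) and Apoa1 (1.54 ± 0.655, adjusted p = 0.569), and a median of 0.61. Without A replicate 3 Ttr was called in RN (1.87, adjusted p = 0.0482), as it was with the BeadChip as a random block (1.92, adjusted p = 0.0307). With batch 1 arrays alone limma called neither Ttr (0.83, adjusted p = 0.322) nor Apoa1 (0.88, adjusted p = 0.298) in RN. In NSB (2.18% of probes) limma called 0 of 8, and 1 gene had an unadjusted p under 0.05, Apob, which was undetected in NSB and at least 1.05-fold lower (adjusted p = 0.31), with a median of -0.40, or -0.30 with Apob at its bound. In batch 3, where NSB replicate 3 stood against 2 CLE arrays alone, the median was 0.92. Without St1 replicate 2 Apob was called there (adjusted p = 0.0253). In St1 (0.451% of probes) limma called 0 of 8 and none had an unadjusted p under 0.05. The median of St1 was 0.30, and it moved to -0.15 without St1 replicate 1 and 0.76 without St1 replicate 2, which differed by -0.97 in the median of the 8 genes.

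St5 is the posterior end of the streak at E8.5, and limma called 0 of 8 genes there (5.47% of all tested probes), with 3 at an unadjusted p under 0.05. These were Ttr (1.71 ± 0.598, SE, adjusted p = 0.124), Apob (0.88 ± 0.365, adjusted p = 0.26) and Amn (1.16 ± 0.533, adjusted p = 0.37), and the median was 0.57. Without St1 replicate 1 Ttr (1.97, adjusted p = 0.0397) and Apob (1.08, adjusted p = 0.0416) were called, and without A replicate 3 Ttr (1.75, adjusted p = 0.0385). The CLE was part of the other regions here too, whereas batch 1 holds RN, St1, St5 and 2 NSB arrays and no CLE array. Within batch 1 Amn was called by limma in St5 (0.83, adjusted p = 0.0164). Ttr (0.70, adjusted p = 0.316) and Apob (0.78, adjusted p = 0.0948) were not called there. With the BeadChip as a random block limma called Ttr (1.80, adjusted p = 0.0243) and Apob (1.12, adjusted p = 0.0195) in St5. The posterior end of the streak was also compared between stages. Of the 8 genes 3 were called lower in St5 than in E7.5 PP and none higher, beside 1.03% of all tested probes: Apob by -5.76 ± 0.656 (SE, adjusted p = 3.48e-05), Cubn at least 13.7-fold (adjusted p = 0.0329) and Slc2a2 at least 5.97-fold (adjusted p = 0.000299). Here too, Slc2a2 and Cubn had entered the test only through PP and A replicate 3. All 8 had an unadjusted p under 0.05 and the median was -3.19, or -2.94 with the 3 bounded genes at their bound. St5 lies in batch 1 and PP in batch 3, so that only NSB replicate 3 ties the batches directly. Without A replicate 3 Rbp4 was called as well (-3.03, adjusted p = 0.00417), as it was without A replicate 2 (0.0459) or CLE replicate 1 (0.0493). Without PP replicate 2, which left 1 PP array, Rbp4 was at -3.63. Cubn lost its call without NSB replicate 1 (-4.25, adjusted p = 0.119) or NSB replicate 2 (-4.34, 0.1), against a fitted -4.29 with all arrays. It also lost it where 1 array of a region was left, without PP replicate 1 (-3.60), St5 replicate 1 (-4.33) or St5 replicate 2 (-4.26). These differences of Cubn rest on background in St5.

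Across stages, the E7.5 regions were set against the E8.5 regions as equal-weight means of regions. Here 5 of the 8 genes were called higher at E7.5 and none lower, against 3.15% of all tested probes. Apob was higher by 4.97 ± 0.437 (SE, adjusted p = 3.2e-07), Ttr by 3.02 ± 0.716 (0.0193), Apoa1 by 2.87 ± 0.785 (0.0466) and Amn by 2.51 ± 0.639 (0.0314), and Slc2a2 was at least 1.07-fold higher (adjusted p = 0.0349). Rbp4 (1.01, adjusted p = 0.331) and Afp (0.58, adjusted p = 0.568) were not called. Slc2a2 was undetected on all A and P arrays. Its second tested probe, detected on 1 of 7 E7.5 arrays and none of E8.5, was not called (limma's adjusted p = 0.553). The array means of that probe were 4.91 at E7.5 and 4.64 at E8.5, and its fitted difference had the opposite sign. The median was 2.22, or 1.76 with 2 genes at their bound, against 0.049 for all tested probes. Only the call of Apob held without each array in turn. Without A replicate 3, 3 genes were called: Apob (4.78), Ttr (2.50, adjusted p = 0.0241) and Cubn (adjusted p = 0.0425, against 0.12 with all arrays). Without NSB replicate 1 only Apob was called, with Ttr at 2.67 (adjusted p = 0.0882), and 2 genes were called without NSB replicate 2 or PP replicate 1 and 3 without St5 replicate 2 or RN replicate 2. Amn lost its call without A replicate 3 (2.24, adjusted p = 0.0521), PP replicate 1 (2.34, 0.0602), NSB replicate 1 (2.38, 0.102) or NSB replicate 2 (2.64, 0.0577). Slc2a2 lost it without any 1 of 7 arrays (adjusted p = 0.0526 to 0.0893), which were A replicate 3, PP replicate 1, St1 replicate 1, St5 replicate 2, RN replicate 2 and NSB replicates 1 and 2. Apoa1 lost it without any 1 of 21 of the 35 arrays that could be left out, with differences of 2.49 to 3.13 and an adjusted p of up to 0.149, and its call is at the threshold. After cyclic loess normalisation Ttr (2.51, adjusted p = 0.171) and Apoa1 (2.52, adjusted p = 0.116) were not called, and Slc2a2 was not with no background correction (adjusted p = 0.142) or as the mean of its tested probes (adjusted p = 0.412). With no filter on dim probes Apoa1 was not called either (2.87, adjusted p = 0.0511). Cubn was called by limma with no batch term (adjusted p = 0.00046) or the BeadChip as a random block (0.00166).

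Only NSB replicate 3 ties batch 1, with most E8.5 arrays, to the batches of E7.5, and it could not be left out. Within batches this stage difference rests on few arrays, since CLE replicate 1 is the only E8.5 array of batch 2. It detected Amn, with a difference of 2.23, but none of the other 7 genes, of which Ttr, Apoa1 and Apob were detected on every E7.5 array. In batch 3, with 2 CLE arrays and 1 NSB array, the differences were 5.74 for Ttr (adjusted p = 0.044), 4.38 for Apoa1 (0.147) and 3.67 for Amn (0.161), and Apob (0.044) was undetected on all 3 of these arrays. The E8.5 side of both batches is mostly CLE, from which endoderm was cut away, so that within them stage and dissection cannot be told apart.

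Of the 8 genes 3 were called higher at E8.5 than in the tail bud and none lower, against 12.1% of all tested probes. Cubn and Slc2a2 were detected on none of the 12 E8.5 and 17 tail bud arrays and so give no information. Here, too, only NSB replicate 3 ties batch 1 to the other batches, and it could not be left out. Ttr was at least 6.12-fold higher (adjusted p = 1.48e-05), Amn higher by 2.97 ± 0.441 (SE, adjusted p = 3.95e-05) and Apoa1 by 2.04 ± 0.541 (0.0122). Afp was not called (unadjusted p = 0.0168, adjusted p = 0.0977), and it was called without A replicate 3 (adjusted p = 0.00791). Within batch 1, which holds 8 E8.5 arrays and 4 of E10.5, Apoa1 was higher by 2.73 (adjusted p = 7.21e-05), and Ttr (1.08e-06), Amn (4.36e-08) and Afp (0.00386) were called higher with no detected E10.5 array. In batch 2, where CLE replicate 1 alone stands for E8.5, the difference of Amn was 2.61, whereas Apoa1 and Ttr were undetected on that array. In batch 3, with 2 CLE arrays and 1 NSB array of E8.5, no gene was called, with adjusted p-values of 0.194 for Amn, 0.106 for Ttr and 0.54 for Apoa1. The median of the 8 genes was 0.72, and -0.015 for all tested probes.

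Within the tail bud no member was called. For P-CNH against CNH at matched stages limma called 0 of 8 genes, none had an unadjusted p under 0.05, and the differences ran from -0.50 to 0.20 with a median of -0.20 (0.599% of all tested probes called). Afp, Ttr, Apob, Cubn and Slc2a2 were detected on no array of either side. They give no information here, although they enter this range and median. For the late CNH (E12.5 and E13.5) against the earlier CNH limma again called 0 of 8, with none at an unadjusted p under 0.05, a range of -0.76 to 0.23 and a median of -0.02 (5.96% of probes called). Here Amn, too, was undetected on both sides, so that only Rbp4 and Apoa1 could show a change. Per array, 0 to 2 of the 8 genes were detected in the tail bud.

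The wider machinery of lipid and protein transport was followed with fixed lists. Counts of list and marker genes stand beside the shares of all tested probes given above for each comparison. These ran from 0.451% in St1 to 12.1% in E8.5 against the tail bud. Of 74 calls of list genes, the largest of each list and comparison, 44 held in every fit that left out 1 array and 30 were lost in at least 1 of these fits (8 of 13 in PP against A), so the counts of calls depend on single arrays. Among 8 tested lipoprotein genes, 7 were higher in PP than in A and none lower, with a median of 2.25, led by Apoa2 (3.66, adjusted p = 0.000431), a further protein of high-density lipoprotein, and including Soat2 (2.45, adjusted p = 0.00126), which esterifies cholesterol. Soat2 was detected on all A arrays and was at 3.42 without A replicate 3. Apoa2 was detected in A on replicate 3 alone, as were Apoa4, Apoc2, Apoc3 and Mttp of the 7, so these differences rest partly on background. The mean log2 intensity of the list was 10.08 and 9.21 in PP, 7.98 and 7.75 in P, and 6.56, 6.75 and 8.26 in A. Against P, 1 of the 8 was higher and none lower, with a median of 1.43: Apoc3, an inhibitor of lipoprotein lipase, was at least 3.05-fold higher (adjusted p = 0.0126), a call lost without P replicate 1 (0.0953) or PP replicate 1 (0.276) or with the BeadChip as a random block (0.117). Apoc3 was detected on 3 arrays, both of PP and A replicate 3, and like Cubn entered the test only through them. Between E7.5 and E8.5, 5 were higher and none lower with a median of 1.82, led by Soat2 (4.06, adjusted p = 3.32e-05), and 4 were lower and none higher in St5 than in PP, Soat2 by at least 29.8-fold (adjusted p = 0.000745). From E8.5 to the tail bud, 2 were higher at E8.5, Apom (2.40, adjusted p = 0.00356) and Apoe (2.18, adjusted p = 1.11e-06), whose probes were detected on 32 and 35 arrays. A second probe of Apom was detected on 18 arrays, 2 of them among the 17 of the tail bud (1.57, adjusted p = 0.0156). The lipoprotein list had no call in A against P, in the 5 E8.5 comparisons of single regions or within the tail bud.

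Of 9 endocytic uptake genes, none was called between PP and P (median 0.71) and 3 were higher in PP than in A (median 0.23). The calls of Lgmn and Dab2 were lost without PP replicate 1, which left 1 PP array. Their differences were then 2.12 and 1.16, against 2.39 and 1.63 with all arrays. Ctsh, a lysosomal protease, was higher by 2.25 (adjusted p = 0.000211). At E7.5 against E8.5, 3 were higher with a median of 1.56: Lrp2, which encodes megalin, a partner of cubilin in uptake (2.67, adjusted p = 0.00487), Ctsh (2.39, adjusted p = 0.000833) and Dab2, an endocytic adaptor (2.05, adjusted p = 0.00689). Ctsh was also lower in CLE by at least 1.99-fold (adjusted p = 0.000924) and higher in St5 (1.97, adjusted p = 0.000269). Lrp2 was lower in the late CNH (-3.51, adjusted p = 1.68e-06). It was detected on 32 arrays and Cubn on 3, but detection depends on each probe and the genes are not compared by it. The list had 1 call of 9 in E8.5 against the tail bud (higher), near the share of all tested probes (12.1%). It also had 1 in St5 against PP (lower) and 3 in the late CNH (1 higher, 2 lower).

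Serum and vitamin carriers had 6 tested genes of 10. Of these, 4 were higher in PP than in A (median 1.33), led by the iron carrier gene Trf (2.91, adjusted p = 5.45e-05) and the fibrinogen chain gene Fga (2.19, adjusted p = 6.24e-05), which A detected on 2 of 3 arrays and on replicate 3 alone respectively, none was called between PP and P (median 0.94), and 2 were higher at E7.5 than at E8.5 (median 0.47), with Fga at least 1.61-fold higher. Another fibrinogen chain gene, Fgg, was higher in RN (1.89) and NSB (2.31) than in the rest of E8.5. The carriers also had 1 lower call in A against P, 1 higher in St1, 2 lower in St5, 1 higher in E8.5 against the tail bud, 2 lower in St5 against PP and 1 lower in P-CNH. Among 8 tested solute and iron transporters, 2 were called higher in PP than in A (median 0.42) and none against P (median 0.04). The call of Slc7a7, an amino acid transporter subunit (2.38, adjusted p = 0.0135), was lost without PP replicate 1 (0.139) or PP replicate 2 (0.058), and that of the iron exporter gene Slc40a1 (1.93, adjusted p = 0.0334) without A replicate 1 (0.107), A replicate 2 (0.103), PP replicate 1 (0.303) or PP replicate 2 (0.0782). Without A replicate 3 they were at 2.61 and 2.90. Slc39a8, a zinc and manganese transporter, was lower in A than in P (-1.87, adjusted p = 0.00141) and was the only one higher at E7.5 than at E8.5 (1.71). The transporters had 1 lower call in St5, 2 higher in E8.5 against the tail bud and 1 higher in the late CNH, and none elsewhere.

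Visceral endoderm regulators had 10 tested genes of 12, all that the table holds under the listed symbols. None was called between PP and P (median 0.19) and 2, Sox7 and Eomes, were called higher in PP than in A (median 0.55). Eomes was detected on 1 array, PP replicate 2, through which alone it was tested, and its call was lost without that array (adjusted p = 0.225) or A replicate 3 (0.0658). Sox7, detected in A on replicate 3 alone, was called at 1.84 (adjusted p = 0.0264, and 1.14e-07 without that array), and its call was lost without A replicate 1 (0.0929), A replicate 2 (0.0948) or PP replicate 1 (0.375). Their mean log2 intensity was 8.14 and 8.00 in PP, 7.61 and 7.74 in P, and 7.24, 7.29 and 8.02 in A, so that A replicate 3 lay within the range of PP here. In CLE 4 were lower, Sox17 by at least 4.54-fold (adjusted p = 7.87e-07) and Gata6 by at least 2.51-fold (adjusted p = 0.000451), both genes of endoderm specification, and 3 were higher at E7.5 than at E8.5 (median 0.97), led by Gata6 (2.58). At E8.5, 3 were higher in RN, 3 in NSB, 1 in St1 and 3 in St5, where Sox7 was at least 5.68-fold higher, and the tail bud had 3 lower than E8.5. The list also had 1 lower call in A against P, 4 lower in P-CNH and 1 lower in the late CNH. Sox17, Foxa1 and Foxa2 are also in the gut endoderm list.

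**Figure D3:**
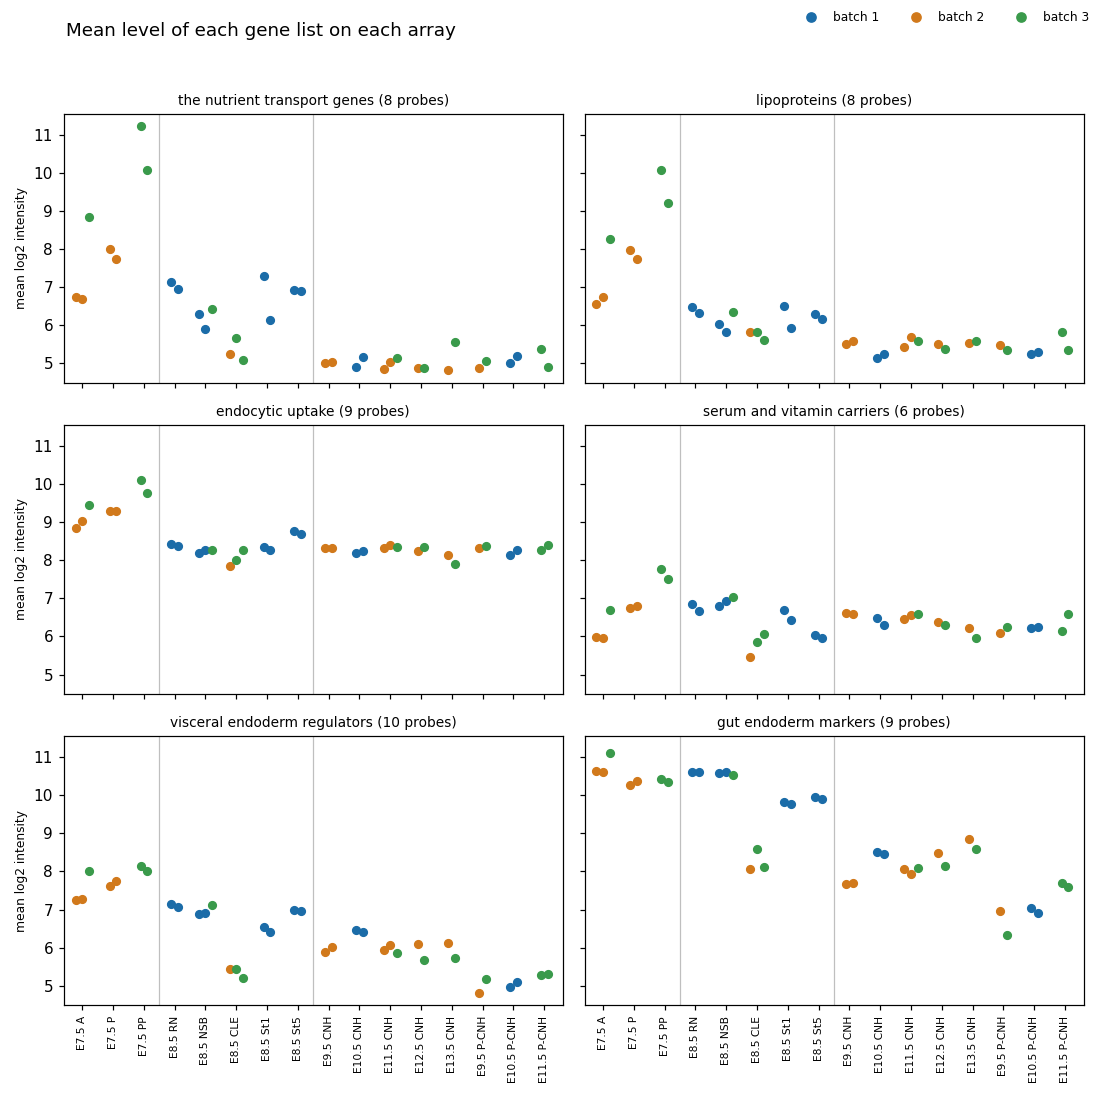
Mean log2 intensity (y axis) per array, by region (x axis), of the 8 genes, 4 of the fixed lists around them and the gut endoderm markers. The mean of the 8 genes reaches 11.23 and 10.08 in E7.5 PP, while the gut endoderm markers there (10.43 and 10.34) lie below E7.5 A (10.62 to 11.11).

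Markers of other cell types were read beside the differences of PP. None of the 9 gut endoderm markers was called between PP and P (median 0.20) or PP and A (median -0.48), and all 9 were detected on every E7.5 array, at means of 10.43 and 10.34 in PP, 10.27 and 10.36 in P and 10.64, 10.62 and 11.11 in A. The brightest of them in PP were Cldn6 (12.67 on replicate 1) and Krt8 (12.54 and 12.55). Of 3 tested extra-embryonic mesoderm and allantois markers, 1 was higher in PP than in P and 2 than in A, with means of 8.00 and 7.55 in PP against 5.89 to 7.07 in the other E7.5 arrays. The brightest, Ahnak, measured 10.11 and 9.47 in PP, and Hand1 (7.70 and 8.01) was detected elsewhere at E7.5 on A replicate 3 alone (6.47). None of 6 blood markers was called against P (median 1.01) or A (median 0.82), with means of 5.57 and 5.48 in PP against 4.96 to 6.55. The brightest was Hbb-b1 (7.56 and 6.86 in PP), and the embryonic globin genes Hba-x, Hbb-bh1 and Hbb-y were undetected on every E7.5 array. Of 5 notochord and node markers, none was called against P (median -1.43, or -1.25 with 3 at their bound) and 2 were lower in PP than in A (median -1.40, or -0.99 with 2 at their bound). Of 5 surface ectoderm markers, 1 was higher in PP than in A. The part of these tissues in the differences of the 8 genes was not tested.

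In the other comparisons the same marker lists were called as follows. Gut endoderm markers had 3 higher in RN, 4 in NSB, 1 in St1, 2 higher and 1 lower in St5, 1 higher at E7.5 than at E8.5, 6 higher at E8.5 than in the tail bud, 4 lower in P-CNH and 3 higher and 1 lower in the late CNH. Blood markers had 1 lower in CLE, 3 higher in RN, 1 lower at E7.5 than at E8.5, 4 lower at E8.5 than in the tail bud and 1 lower in the late CNH. Notochord and node markers had 4 higher in RN, 4 in NSB, 1 in A against P, 1 lower in CLE, 3 in St5 and 2 in P-CNH. Extra-embryonic mesoderm and allantois markers had all 3 higher in St5, where they averaged 10.13 and 10.33, 2 lower in NSB, 1 lower in CLE and at E7.5 against E8.5, and 1 higher in E8.5 against the tail bud, St5 against PP and the late CNH. Surface ectoderm markers had 1 lower at E8.5 than in the tail bud and 3 higher in the late CNH. Beside RN, where Ttr and Apoa1 had unadjusted p-values under 0.05, blood markers averaged 9.48 and 8.54 and notochord and node markers 9.11 and 9.32, and their part was not tested.

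The likeness of the 8 genes over the 16 fitted region means is given as a description, since regions share batches and the batch fit. Ttr, Apoa1 and Amn, all detected widely at E8.5, had the closest profiles, with Pearson's r of 0.98 for Ttr and Apoa1, 0.97 for Ttr and Amn and 0.95 for Apoa1 and Amn (n = 16 regions). Cubn and Slc2a2 (0.95) and Afp and Rbp4 (0.94), high in PP and low elsewhere, made the other close pairs, and the lowest value was that of Ttr and Slc2a2 (0.56). Cubn was detected on 3 arrays and Slc2a2 on 2, through which alone they were tested. Most of their region means are background, and the r of this pair follows largely from PP. Apob ran from 0.58 with Rbp4 and 0.64 with Afp to 0.85 with Amn and 0.88 with Apoa1. Centred on the mean of each gene, the mean profile was 4.19 in PP, 2.00 in P and 1.36 in A, from 0.90 in RN to -0.93 in CLE at E8.5, and between -0.84 and -1.32 in the tail bud.

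Among 15208 probes detected on at least 3 arrays and spanning at least 1 log2 unit over regions, the genes with the profile most like this mean were 4933402E13Rik (r = 0.979), Adora2b (0.975), Apom (0.973), Apoa2 (0.970), Nxf7 (0.964), BC025446 (0.960), Pla2g12b (0.953), Habp2 (0.949), Pdzk1 (0.945) and Folr1 (0.942). Adora2b encodes an adenosine receptor, Apom and Apoa2 apolipoproteins, and Folr1 a folate receptor. All 10 were highest in PP and called higher in PP than in A, as their choice by a profile that peaks in PP made likely, and none was called between PP and P. Pdzk1, a scaffold of apical transporters, measured 8.73 and 7.83 in PP, 6.31 and 6.71 in P and 4.57, 4.51 and 6.24 in A, with a difference to A of 2.95. Folr1 measured 9.31 and 8.69 in PP, 7.19 and 6.55 in P and 5.16, 5.03 and 6.73 in A, with a difference to A of 2.93, and A replicate 3 was the only A array that detected either.

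**Figure D4:**
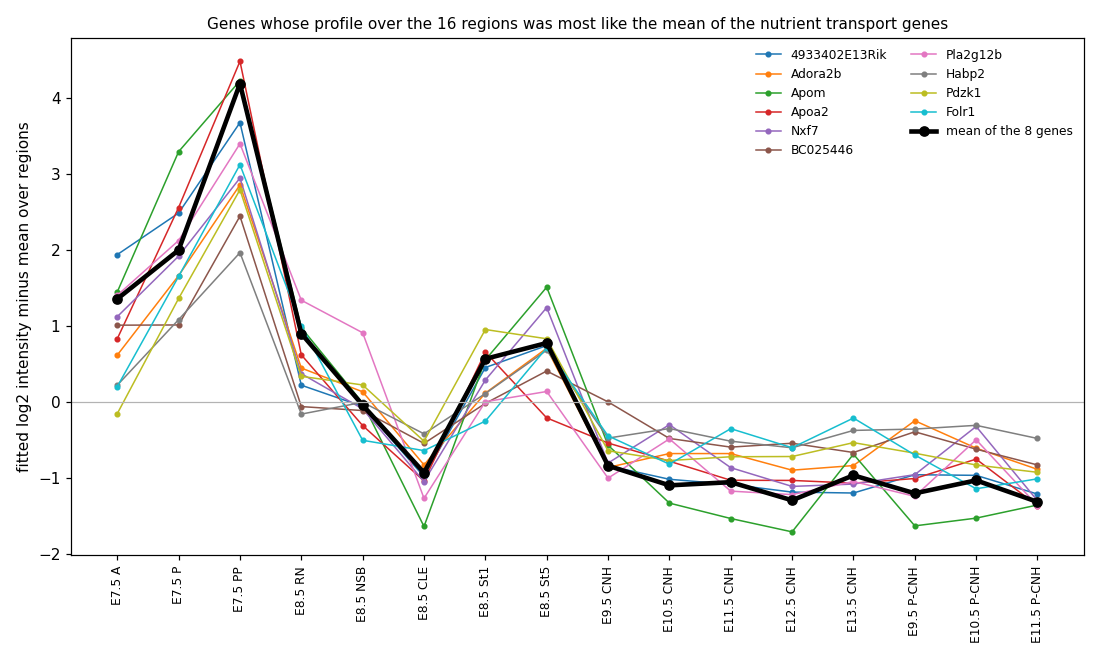
Fitted region means centred on each gene's own mean (y axis, log2) over the 16 regions (x axis), for the mean of the 8 genes (black) and the 10 genes most like it. All lines peak in E7.5 PP, where the mean of the 8 genes is 4.19.

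The nearest genes were also sought for each member singly. Apob was closest to Soat2 (0.992), Slc39a5 (0.991) and Cldn2 (0.980), Ttr to Apom (0.981), Rhox5 (0.971) and Spink3 (0.968), and Apoa1 to Apom (0.978), 4933402E13Rik (0.960) and Pla2g12b (0.953). Amn was closest to Car4 (0.975), Apom (0.962) and Slc13a4 (0.960), and Cubn to Muc13 (0.967), mt-Nd4l (0.959) and Apoc3 (0.948). Slc2a2 was close to Apoc3 (0.954) and Muc13 (0.929) and Rbp4 to Apoc2 (0.868) and Apoc3 (0.853), and Afp was closest to Gramd1b (0.929), Hkdc1 (0.907) and Gltpd2 (0.897). Apoc3 and Muc13 were each detected on 3 arrays. Their r with these members thus rests largely on PP, with background in most other regions. Apom was thus among the nearest genes of Ttr and Amn by its widely detected probe and of Apoa1, as of the mean profile, by its second probe, and Apoc3 among those of Cubn, Slc2a2 and Rbp4.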

How the data were processed

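Gene expression was read from 36 arrays of Illumina's MouseWG-6 v2.0 design (6 BeadChips, 3 labelled batches of 12) of 16 regions, grouped by the labels. The deposited table holds each probe's intensity on a linear scale, before normalisation and with values for 45281 probes. Beside each intensity the authors deposited a detection p-value; the scanner software's version is not given in the sources used here. The study's own steps were background adjustment, variance-stabilising transformation and robust spline normalisation with lumi, and then ComBat. They were replaced, starting from the intensities, by limma 3.58.1 (R 4.3.3): neqc, with normexp background correction from the detection p-values, an offset of 16, quantile normalisation and log2. A probe was tested if any array gave it a detection p-value lower than 0.01 (21712 probes, and 23569 were left out). The fit held 16 regions and the batches (18 residual degrees of freedom), and p-values were moderated and adjusted by Benjamini-Hochberg within each of 13 comparisons; called means an adjusted p-value of at most 0.05 and a fold of at least 1.5. The script was tested on simulated data. Signal on detected over undetected probes had a median of 7.52, 3.89 and 5.4 in batches 1, 2 and 3, and 10814 to 16256 probes were detected per array. By the medians, fewer probes were detected outside batch 1. This did not hold for every array, since E7.5 PP replicate 2 of batch 3 detected 16241.

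The members and lists were chosen with earlier results of these data known. The lists were lipoproteins, endocytic uptake, serum and vitamin carriers, solute and iron transporters, visceral endoderm regulators, and markers of gut endoderm, blood, surface ectoderm, notochord and node, and extra-embryonic mesoderm and allantois (69 of 80 genes tested). Named were all members, at most 3 called genes per pathway list and comparison by size, and the genes most like the members by Pearson's r over the fitted region means; marker genes named singly were chosen after their values were seen. A promoter word, a list gene and a similar gene are not reported here. Other settings tried were an offset of 100, no background correction, normalisation by cyclic loess, no batch term, centring on batch means, BeadChip as a random block, a replicate block, other probe filters, the mean of a gene's probes, single batches and leaving out each array. Promoter words and tables were handled in Python 3.11.15 with pandas 2.3.3, and plots drawn with matplotlib 3.10.9.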

Additional observations from a re-analysis of the deposited data

How the results depend on the processing

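The count of genes called higher in E7.5 PP than in P was 4 in all other settings but the BeadChip as a random block (3, without Afp), and 1 to 4 over the fits that left out each array in turn. For PP against A it was 6, 0 with batch 3 arrays alone and 5 to 8 with 1 array left out, and it was 5 to 8 in the other 10 settings. The 1 gene called between A and P became 2 with no background correction, a normexp offset of 100 or the BeadChip as a random block, 3 with batch 2 arrays alone, and 0 to 2 with 1 array left out. For CLE the count of 1 fell to 0 with cyclic loess, with an offset of 100, with no background correction or with batch 3 arrays alone. It was 3 (Ttr, Apoa1 and Apob) with no batch term, centred on batch means or with the BeadChip as a random block, and 0 to 1 with 1 array left out. Counts of 0 became 1 in RN with the BeadChip block (Ttr) and with batch 1 arrays alone (Rbp4), and 2 in NSB with batch 1 arrays alone (Rbp4 and Amn, lower), with 0 to 1 in both when 1 array was left out. In St5 the count was 1 with no batch term, centred on batch means or with batch 1 arrays alone, 2 with the BeadChip block, and 0 to 2 with 1 array left out. For E7.5 against E8.5 the count of 5 became 3 with cyclic loess, 8 centred on batch means, 3 with batch 2 and 2 with batch 3 arrays alone, and 1 to 5 with 1 array left out. For E8.5 against the tail bud 3 became 5 with no batch term, the BeadChip block or batch 1 arrays alone, 1 with batch 2 and 0 with batch 3 arrays alone, and 3 to 4 with 1 array left out. For St5 against PP 3 became 4 with no background correction or an offset of 100 (Rbp4 as well, adjusted p = 0.0265 and 0.00842), 8 with no batch term or centred on batch means, 7 with the BeadChip block, and 2 to 4 with 1 array left out. St1 and both tail bud comparisons had 0 in every setting and in every fit with 1 array left out (0 to 0). The cause was not tested in any of these, beyond the fewer arrays of single batches.

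Among the differences recomputed for named genes, directions turned only where a batch was fitted alone. With batch 2 arrays alone these were Slc2a2 (-0.64) and Mttp (-0.74) for E7.5 against E8.5, and Apoa1 (-0.66), Sox17 (-0.18) and Afp (-0.01) for E8.5 against the tail bud, where CLE replicate 1 is the only E8.5 array and detected none of these genes. Slc2a2 and Afp were undetected on the other side as well, so their signs carry no information. With batch 1 arrays alone Sox17 was at -0.01 in St5. The median of the 8 genes turned to 0.92 in NSB with batch 3 arrays alone and to -0.15 in St1 without St1 replicate 1, and the medians of both tail bud comparisons, near 0, changed sign in some settings. Of the 10 genes most like the mean profile, 10 were shared under both other probe filters, 9 with an offset of 100, 8 with no background correction, no batch term or the BeadChip block, 7 with cyclic loess, 6 centred on batch means, and 8 to 10 with 1 array left out.

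Replicate numbers were not taken as pairs, since no label ties them to shared embryos and not every pair correlated over 0.1 in its deviations (16 of 33, -0.58 to 0.39, median 0.08). Over 0.1 were 12 of 16 same-numbered pairs on 1 BeadChip and 4 of 17 others, and in batch 1 each number is 1 BeadChip. Where both regions have 2 arrays, both numbers give the same r, so the 33 values are not independent. Some piece counts match by number, with 9 in replicate 1 and 13 in replicate 2 of both E7.5 A and P, so shared embryos remain possible. The replicate block fitted the number as 1 term over all stages, and so does not test pairing within a stage. With the replicate block the count for E7.5 against E8.5 was 2, without Apoa1 (2.82, adjusted p = 0.0599), Amn (2.26, 0.056) and Slc2a2 (0.0543), and 8 of the 10 most similar genes were shared. In PP against A Amn was not called (1.80, adjusted p = 0.131), and in St5 against PP Rbp4 was called as well (-3.73, adjusted p = 0.0326). It changed no other call of the 8 genes.

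No fit within a batch was possible where a batch lacks a side, as for PP against P and St5 against PP, and NSB replicate 3 could be left out only for the E7.5 and P-CNH comparisons, since it alone ties batch 1 to the others. Where 1 array of a region was left, it was assumed to vary like the others. Signal over background was lowest in batch 2 (median 3.89), so differences against values near the floor, such as those of Cubn, Afp and Rbp4 outside PP, rest partly on background.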
